A study of Mus musculus with 12 samples.

Results

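Transcripts of 8 ionotropic glutamate receptor subunit genes were followed in mouse cortical neuron cultures that were depleted of topoisomerase I, treated with its inhibitor topotecan, or both. The 8 genes are the NMDA receptor subunits Grin1, Grin2a, Grin2b, Grin2c, Grin2d, Grin3a and Grin3b and the delta subunit Grid1. They were taken by symbol from a table of 23893 genes, and all 8 had a mean of at least 1 CPM (counts scaled to the library total, with a trimmed-mean correction).

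Cultures were made from cortex of E13.5 to E15.5 embryos and infected on day 3 in vitro (DIV 3) with a lentivirus. In WT cultures the virus encoded tdTomato alone, and in Top1 cKO cultures tdTomato-P2A-CRE. The labels call the strain C57BL6 and the genotypes Wild-type and Top1cKO; by the study's methods both kinds of culture carried floxed Top1 alleles. The CaMKIIα promoter that drives the virus is active in neurons, and 85 to 90% of cells were transduced. The paper holds uninfected neurons, non-neuronal cells or both to be the most likely source of the remaining TOP1. At DIV 15 the cells received vehicle (Veh, 0.003% DMSO) or 300 nM topotecan (Topot) for 3 days. The 4 groups (WT-Veh and WT-Topot, and the same pair of treatments in Top1 cKO) held 3 RNA-seq libraries each, of 1730164 to 4583777 counts.

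NMDA receptors are glutamate-gated, calcium-permeable channels that open when glutamate and a co-agonist, glycine or D-serine, bind while the membrane is depolarised. An obligatory GluN1 subunit (Grin1) pairs with GluN2 subunits (Grin2a to Grin2d), which bind glutamate and set the kinetics, or with GluN3 subunits (Grin3a, Grin3b), which bind glycine. In cortex GluN2B prevails early and GluN2A joins it during maturation, so the balance of Grin2a to Grin2b is a usual readout of receptor composition. GluD1, from Grid1, belongs to the same superfamily but acts mainly as a synapse organiser that binds cerebellins and, through them, neurexins. Topoisomerase I relaxes the supercoils that form as RNA polymerase moves along DNA, and topotecan traps it on DNA.

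The genes differ widely in length. In the mouse build NCBIM37 (mm9), Grid1 spans 763.6 kb (chr14:35633011-36396565), Grin2b 443.7 kb (chr6:135679844-136123529) and Grin2a 417.2 kb (chr16:9577803-9995014). Grin3a covers 184.1 kb (chr4:49674483-49858616). The other 4 are short: Grin2d has 39.0 kb (chr7:53087253-53126298), Grin1 28.0 kb (chr2:25146701-25174707), Grin2c 18.1 kb (chr11:115110483-115128557) and Grin3b 6.48 kb (chr10:79433460-79439935). Their exons sum to 3.30 to 15.8 kb.

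The stretch below codes for part of the conserved M3 transmembrane segment that lines the channel pore. It is shown as an example of a conserved part of the family. Each sequence lies within 1 coding exon, reads 5′ to 3′ along the gene, and has bases that differ from Grin1 in capitals.
Grin1, chr2:25152722-25152742, minus strand: tacactgccaacctggcagcc
Grin2a, chr16:9653543-9653563, minus strand: tacacAgccaacctggcTgcc
Grin2b, chr6:135722265-135722285, minus strand: tacactgccaacTtAgcCgcc
Grin2c, chr11:115115066-115115086, minus strand: tacacGgccaaTctggcagcc
Grin2d, chr7:53109652-53109672, minus strand: taTacAgccaaTctggcTgcc
Grin3a, chr4:49783345-49783365, minus strand: tacacAgcGaacTtggcTgcT
Grin3b, chr10:79437384-79437404, plus strand: tacacAgccaacctggcagcT
Grid1, chr14:36265530-36265550, plus strand: tacacAgccaacctggcCgcT
Here each other gene differed from Grin1 at 2 to 5 of 21 bases, and Grin3b and Grid1 differed less from each other. Over whole coding transcripts the longest run shared by any of the 28 pairs of genes was 34 bases, and that of Grin2a and Grin2b was 24, below the read length of 50.

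The deleted gene itself was examined first. Top1 was at 117, 164 and 124 CPM in WT-Veh and 129, 140 and 130 CPM in WT-Topot, against 30.1, 44.0 and 27.1 CPM in Top1 cKO-Veh and 29.1, 37.5 and 28.4 CPM in Top1 cKO-Topot. Every Top1 cKO library lay below every WT library. The log2 fold change was -1.98 ± 0.23 (SE) between Top1 cKO-Veh and WT-Veh (edgeR quasi-likelihood test, adjusted p = 0.00119).

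In untreated WT cells the family was dominated by Grin1 and Grin2b. Per kb of exon, which allows genes to be compared, Grin1 was at 53.0 ± 16.5 CPM per kb (SD, n = 3 here and below), Grin2b at 22.4 ± 6.54 and Grid1 at 6.94 ± 1.26. Grin2a (3.93 ± 1.39), Grin2d (2.70 ± 0.54), Grin3b (2.14 ± 1.95) and Grin3a (1.95 ± 0.667) followed, each overlapping the next of these 4 in its libraries, while all 3 libraries of Grid1 lay above those of Grin2a. Grin2c was lowest at 0.368 ± 0.35 CPM per kb, with every library below those of Grin3a. It had 0 to 10 counts per library and none in 3 libraries, where a count of 0 allows up to 1.31 to 1.73 CPM. Lengths are those of GENCODE exons, not of the RefSeq models on which reads were counted, and the order of close values rests on them.

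**Figure D1:**
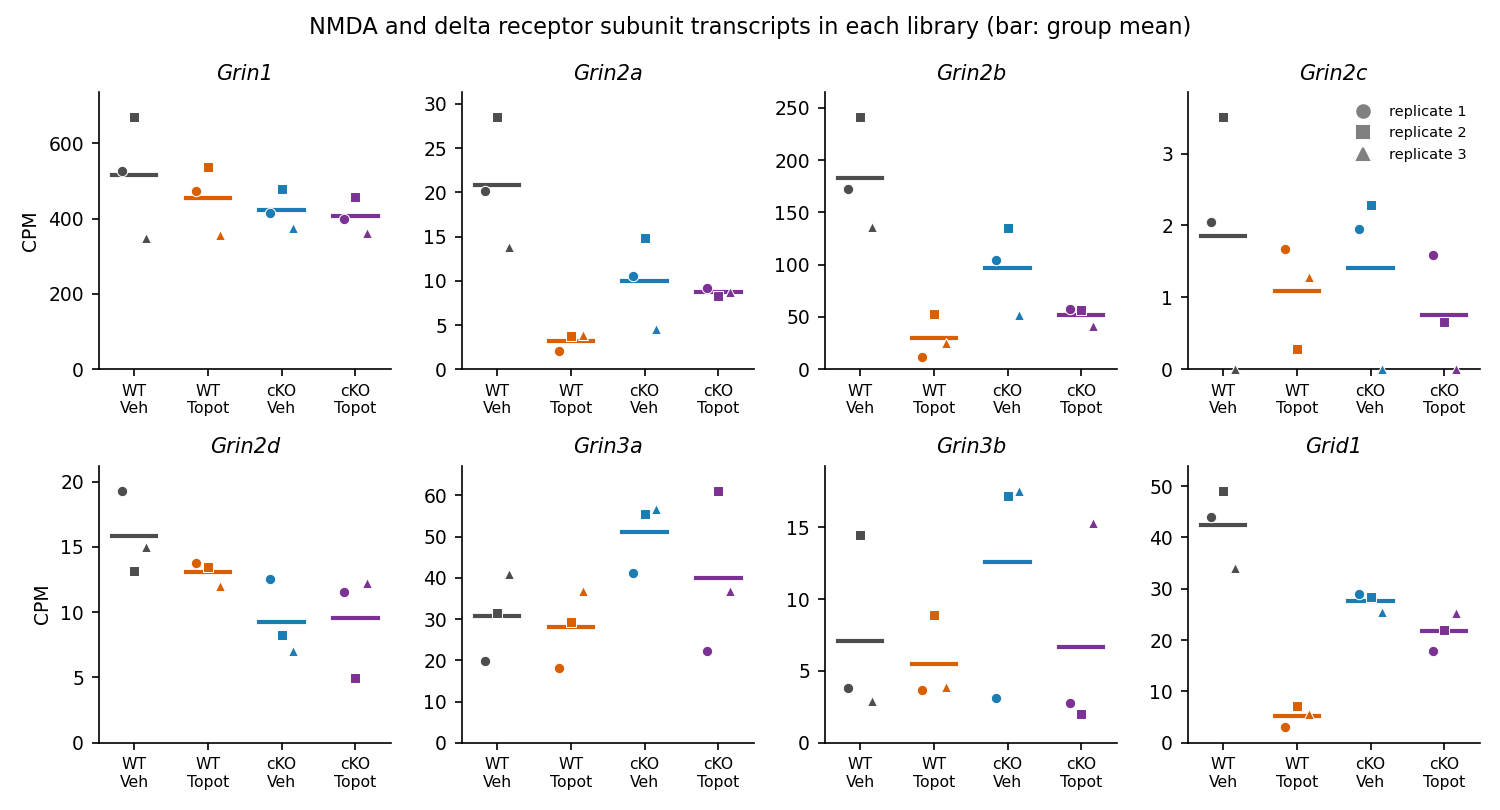
CPM of each gene (vertical axes from 0, scaled per gene) in the 12 libraries by group; symbols mark replicate numbers and bars the group means. Grin2a, Grin2b and Grid1 of WT-Topot lie below all WT-Veh libraries, while Grin1 overlaps in all groups.

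Topotecan in WT cells lowered Grin2a, Grin2b and Grid1 sharply and left the other 5 genes short of the threshold. These 3 of 8 genes were called lower and none higher at an adjusted p below 0.01, with 3.56% of all 13720 genes of at least 1 CPM called lower.

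Grid1, the delta subunit, was at 43.9, 49.1 and 34.0 CPM in WT-Veh and 3.02, 7.16 and 5.57 CPM in WT-Topot. It had the largest fold change of the 8, 7.95-fold lower (log2 fold change -2.99 ± 0.32, adjusted p = 5.13e-06). Only 9 to 25 counts remained per topotecan library.

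Grin2b, the prevailing GluN2 gene, was at 172, 241 and 136 CPM in WT-Veh and 11.7, 52.7 and 25.3 CPM in WT-Topot. The groups did not overlap, although the topotecan libraries differed among themselves and replicate 2 stood highest. The fall was 6.05-fold (log2 fold change -2.60 ± 0.35, adjusted p = 6.57e-05), and the log2 fold change was -3.32 without that library.

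Grin2a, whose product joins synapses as neurons mature, was at 20.2, 28.5 and 13.8 CPM in WT-Veh and 2.01, 3.72 and 3.85 CPM in WT-Topot. Every treated library was below every control, a 6.49-fold difference (log2 fold change -2.70 ± 0.39, adjusted p = 1.61e-04). The 3 calls held in all 12 alternative fits, with adjusted p up to 0.00341 over all of them.

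Grin1, the obligatory subunit, was at 525, 669 and 350 CPM in WT-Veh and 474, 537 and 355 CPM in WT-Topot. The libraries overlapped, and the log2 fold change was -0.17 ± 0.21 (adjusted p = 0.945). Grin3a (-0.11 ± 0.30), Grin2d (-0.28 ± 0.30), Grin3b (-0.33 ± 0.54) and Grin2c (-0.87 ± 0.87) likewise overlapped, and the SE of the last 2 leaves room for differences of 2-fold and more.

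The fall can also be read as counts within a library, with no scaling between libraries. Per 100 Grin1 counts there were 32.8, 36.0 and 38.9 Grin2b counts in WT-Veh and 2.47, 9.80 and 7.11 in WT-Topot. Grid1 went from 7.34 to 9.72 down to 0.636 to 1.57 per 100 Grin1 counts. All these ranges were apart.

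Among the 4 GluN2 genes the per-length makeup differed between these groups. Grin2b made up 73.7 to 78.0% of their summed CPM per kb in WT-Veh and 32.0 to 67.9% in WT-Topot. Grin2d, the short gene of a slowly deactivating subunit, made up 5.93 to 11.7% and 24.2 to 52.2%. The share of Grin2d was larger while its own CPM was not called changed.

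Deletion of Top1 without drug gave smaller differences in Grin2a, Grin2b and Grid1. In Top1 cKO-Veh against WT-Veh none of the 8 genes passed in either direction without pairing, with 0.219% of genes called lower. Comparisons that use the WT-Veh libraries are not independent of each other. Here 5 of the 8, and 14.2% of all genes, had an unadjusted p below 0.05, and DESeq2 and edgeR's exact test called none of the 8 either. Libraries of the same replicate number deviated together, and with the number as a block Grin2a and Grin2b were called lower (5.15% of genes) and Grin3a higher (4.53%).

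Grin2b in Top1 cKO-Veh was at 104, 135 and 51.6 CPM, all below WT-Veh. The log2 fold change was -0.91 ± 0.29 (edgeR adjusted p = 0.226), and -0.95 ± 0.13 with the block (adjusted p = 2.23e-10). Replicate 3 was the lowest of its group in Grin2b, Grin2a and Top1 alike.

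Grin2a was at 10.6, 14.9 and 4.51 CPM, and the highest of these lay just above the lowest WT-Veh library. Its log2 fold change was -1.01 ± 0.39 (adjusted p = 0.384), and -1.06 ± 0.26 with the block (adjusted p = 0.00124). Grid1, at 28.9, 28.4 and 25.5 CPM, lay below WT-Veh in every library but did not pass either way (log2 fold change -0.62 ± 0.24, adjusted p = 0.384, or 0.0208 with the block).

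Grin3a lay on the other side. This gene of a glycine-binding subunit that lowers calcium permeability was at 19.9, 31.6 and 40.9 CPM in WT-Veh and 41.1, 55.4 and 56.6 CPM in Top1 cKO-Veh. The groups were just apart, with a log2 fold change of 0.75 ± 0.27 (adjusted p = 0.33), and 0.77 ± 0.19 with the block (adjusted p = 8.83e-04). In Top1 cKO-Topot it scattered between 22.3 and 61.1 CPM.

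Grin2d was at 12.5, 8.24 and 7.01 CPM in Top1 cKO-Veh, below the 13.1 to 19.3 CPM of WT-Veh (log2 fold change -0.78 ± 0.34, adjusted p = 0.498, or 0.0727 with the block). Grin3b, of the second GluN3 subunit, ranged from 1.99 to 17.5 CPM over the 12 libraries. In Top1 cKO-Veh it was at 3.13, 17.2 and 17.5 CPM, overlapping WT-Veh, and it passed in none of the main comparisons; against WT-Topot it was higher in all 12 alternative fits and passed in 1. Grin1 was at 413, 479 and 375 CPM and overlapped WT-Veh (log2 fold change -0.28 ± 0.21).

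**Figure D2:**
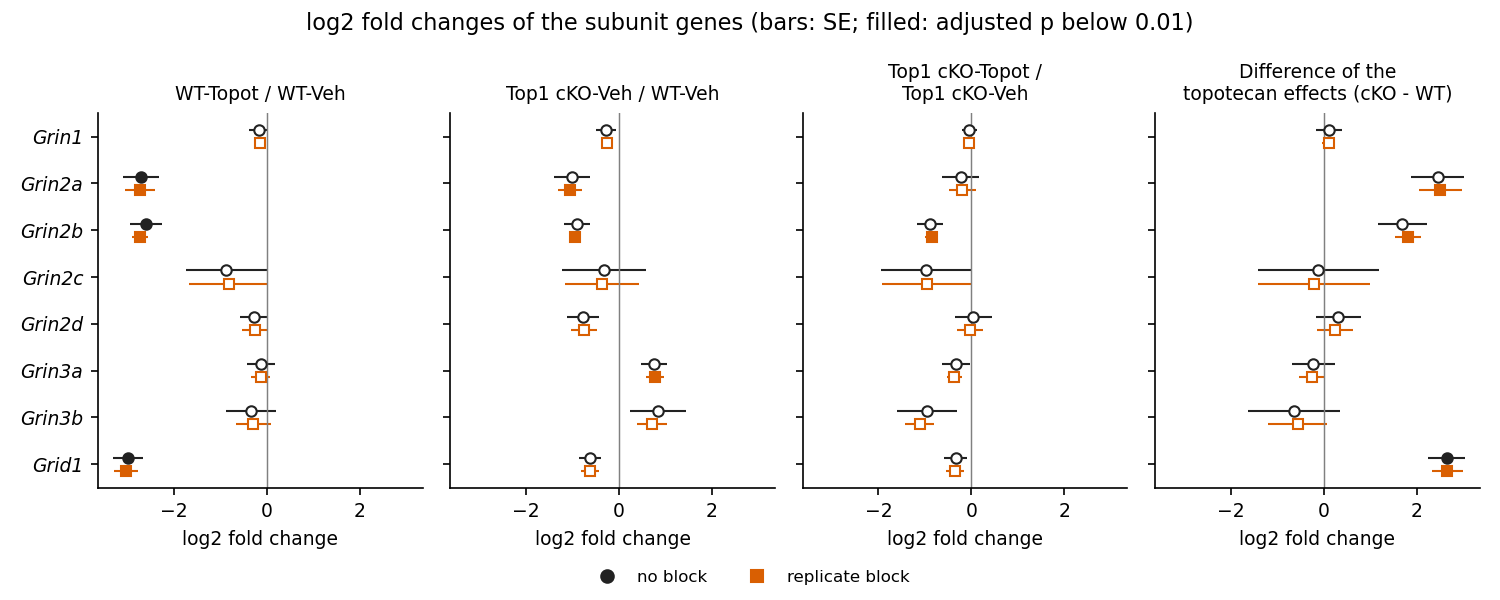
log2 fold change (horizontal axis) of each gene in 3 comparisons and the difference between the topotecan effects in the 2 genotypes; bars are SE, circles the fit without a block, squares that with a replicate block, and filled symbols an adjusted p below 0.01. The drug in WT cells lowered Grid1, Grin2a and Grin2b by 2.60 to 2.99, and the interaction of Grid1 was 2.64.

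Topotecan was also given to cells already infected with CRE. Between Top1 cKO-Topot and Top1 cKO-Veh none of the 8 genes passed (0.0146% of genes were called lower, 2 in all), and 1 of the 8, Grin2b, had an unadjusted p below 0.05, as did 6.84% of genes; DESeq2 and edgeR's exact test called none. With the block Grin2b was called lower, as were 3.02% of genes. Grin2b was at 57.8, 57.1 and 41.5 CPM in Top1 cKO-Topot, with a log2 fold change of -0.89 ± 0.28 (adjusted p = 0.576), and -0.85 ± 0.14 with the block (adjusted p = 7.5e-07). Leaving out replicate 3 of Top1 cKO-Veh, the lowest of that group, also made it pass (log2 fold change -1.19). Without replicate 2 of that group, Grin2b was at -0.59 and did not pass.

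Grin2a was at 9.16, 8.30 and 8.74 CPM in Top1 cKO-Topot, within the range of Top1 cKO-Veh (log2 fold change -0.23 ± 0.39, or -0.20 ± 0.29 with the block). Grid1, at 17.9, 21.9 and 25.4 CPM, lay just below Top1 cKO-Veh (log2 fold change -0.34 ± 0.25, adjusted p = 1).

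The topotecan effect on Grid1 differed between genotypes. The interaction, the effect in Top1 cKO minus that in WT cells, was 2.64 ± 0.40 on the log2 scale (adjusted p = 0.00121). Grid1 was 1 of 8 genes called, beside 0.692% of all genes called higher, and it was called in all 16 alternative fits. Grin2a (2.46 ± 0.57, adjusted p = 0.0353) and Grin2b (1.69 ± 0.52, adjusted p = 0.161) had the same sign. With the block both passed as well (adjusted p = 1.08e-04 and 8.14e-06), as did 4.24% of genes. Without replicate 2 of WT-Topot 2 genes passed, and the interaction of Grin2b was 2.42. With other single libraries left out, that of Grin2b was as low as 1.31.

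The groups that received topotecan stood in the reverse order of the vehicle groups for these genes. Grid1 was higher in Top1 cKO-Topot than in WT-Topot by 4.07-fold (log2 fold change 2.03 ± 0.35, adjusted p = 6.96e-04), the 1 of 8 genes called, beside 2.55% of genes called higher. With the block Grin2a (log2 fold change 1.45 ± 0.38, adjusted p = 0.00443) and Grin2b (0.91 ± 0.22, adjusted p = 0.00163) were also higher, beside 8.02% of genes. Without replicate 2 of WT-Topot, or without replicate 3 of Top1 cKO-Topot, 2 genes passed. Without the block Grin2b was at 0.79 (edgeR adjusted p = 0.211). It was at 1.52 without replicate 2 of WT-Topot, and at 0.40 without replicate 1 of that group (edgeR adjusted p = 0.67). In all 3 replicate numbers each of the 3 genes was lower in Top1 cKO than in WT cells under vehicle and higher under topotecan. For Grin2b the log2 difference under topotecan was only 0.12 in replicate 2. The share of all genes with this pattern is not given here.

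WT-Topot also lay below Top1 cKO-Veh. Grid1 was 5.21-fold lower (log2 fold change -2.38 ± 0.32, adjusted p = 3.13e-04) and the 1 gene called, beside 2.15% of genes; with the block Grin2a, Grin2b and Grin3a passed too, beside 8.35%. Between 1 and 3 genes passed when single libraries were left out: 2 without replicate 2 of WT-Topot, and 3 without replicate 1 or 3 of Top1 cKO-Veh.

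Against WT-Veh, the doubly treated Top1 cKO-Topot cells had less Grin2b by 3.46-fold (log2 fold change -1.79 ± 0.23, adjusted p = 4.98e-05). It was the 1 gene called of 8, beside 2.11% of genes called lower. Grin2a (-1.24 ± 0.34, adjusted p = 0.0453) and Grid1 (-0.95 ± 0.26, adjusted p = 0.0445) were below every WT-Veh library and passed with the block, as did 7.00% of genes; without replicate 3 of WT-Veh 3 genes passed.

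The balance of Grin2a to Grin2b was taken from counts within each library. Grin2a made up 10.5, 10.6 and 9.23% of the summed Grin2a and Grin2b counts in WT-Veh, and 9.18, 9.94 and 8.04% in Top1 cKO-Veh. Summed over libraries, 158 Grin2a and 1374 Grin2b counts were found in WT-Veh, and 101 and 959 in Top1 cKO-Veh. The log2 ratio differed by -0.16 between them (exact permutation test, two-sided, p = 0.2, where 0.1 is the smallest p that 3 against 3 can give).

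In Top1 cKO-Topot Grin2a made up 13.7, 12.7 and 17.4%, above every vehicle library of either genotype. These shares rest on 23, 25 and 20 Grin2a counts. Their 95% Wilson intervals of 9.3 to 19.7%, 8.7 to 18.1% and 11.55 to 25.3% overlap those of the vehicle libraries. The log2 ratio was 0.76 higher than in Top1 cKO-Veh and 0.61 higher than in WT-Veh (exact permutation p = 0.1 for each). All 3 replicate pairs pointed the same way in both comparisons.

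In WT-Topot the share was 14.6, 6.60 and 13.2%, on both sides of the WT-Veh values, as both genes fell. These shares rest on 41, 197 and 68 counts, and their 95% Wilson intervals of 6.88 to 28.4%, 3.9 to 11% and 7.12 to 23.3% overlap those of WT-Veh. The intervals cover counting error only. The log2 ratio differed by 0.19 from WT-Veh (exact permutation p = 0.8), by -0.068 without replicate 1 of WT-Topot and by 0.59 without replicate 2 (p = 0.1, the smallest possible).

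Over both genotypes the log2 ratio was on average 0.47 higher with topotecan, short of the threshold (exact permutation test within genotypes, p = 0.095). Without replicate 2 of WT-Topot the difference was 0.68 (exact permutation p = 0.005). With any other single library left out, the exact permutation p was 0.085 to 0.225. Paired by replicate number, replicate 2 went the other way at -0.14 (exact sign-flip p = 0.5). Deletion over both treatments gave 0.13 (exact permutation p = 0.76), and -0.073 without replicate 2 of WT-Topot.

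**Figure D3:**
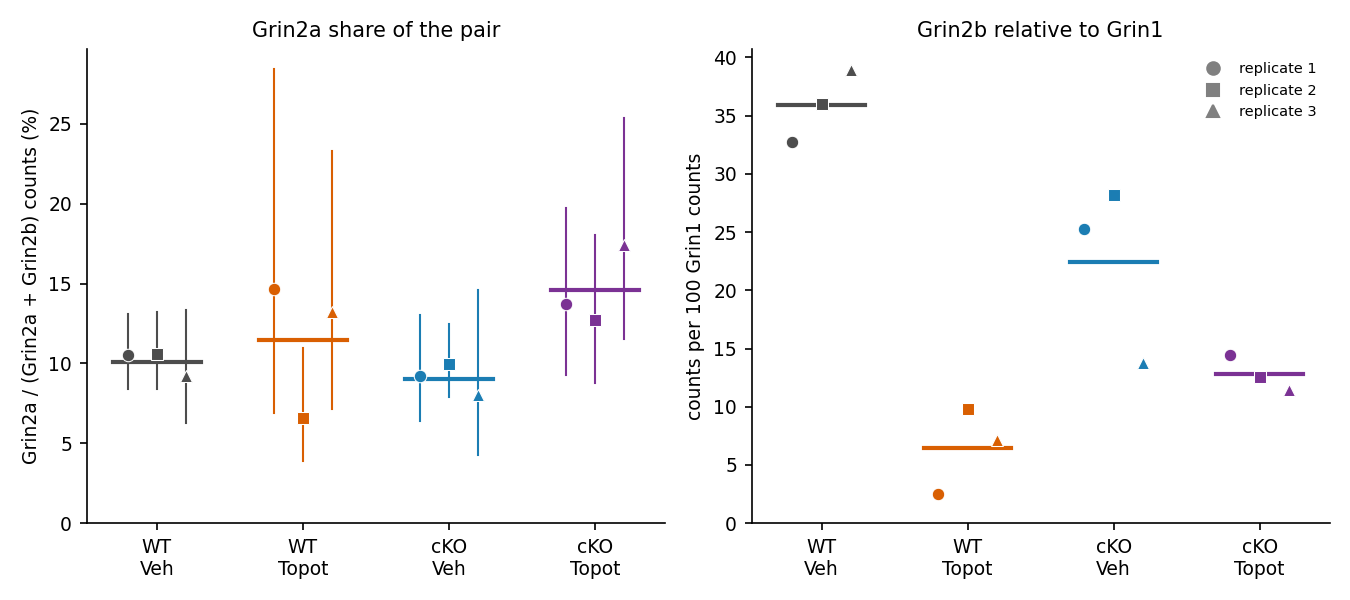
Left, Grin2a counts as a percent of Grin2a plus Grin2b counts in each library, with 95% Wilson intervals; right, Grin2b counts per 100 Grin1 counts. Bars are group means and symbols replicate numbers; Top1 cKO-Topot holds 12.7 to 17.4% Grin2a, and WT-Topot is split at 6.60 to 14.6%.

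Set against gene span, the 3 genes that fell under topotecan in WT cells were the 3 longest of the 8. Of 1955 genes over 100 kb, 18.0% were called lower, with a median log2 fold change of -0.43. In the 450 genes over 300 kb, where Grin2a, Grin2b and Grid1 belong, 54.0% were called and the median was -1.42, so that these 3 values lay beyond the median of their length class. Grin3a, at 184.1 kb and a log2 fold change of -0.11, sat in the class of 100 to 300 kb, where 7.24% were called lower and the median was -0.29. The 10715 genes of 100 kb or less had a median of 0.08.

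Under deletion alone the genes over 300 kb had a median log2 fold change of -0.32, and those of 100 to 300 kb of 0.005. Grin2a, Grin2b and Grid1 were again lower than the first of these medians, and Grin3a higher than the second.

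**Figure D4:**
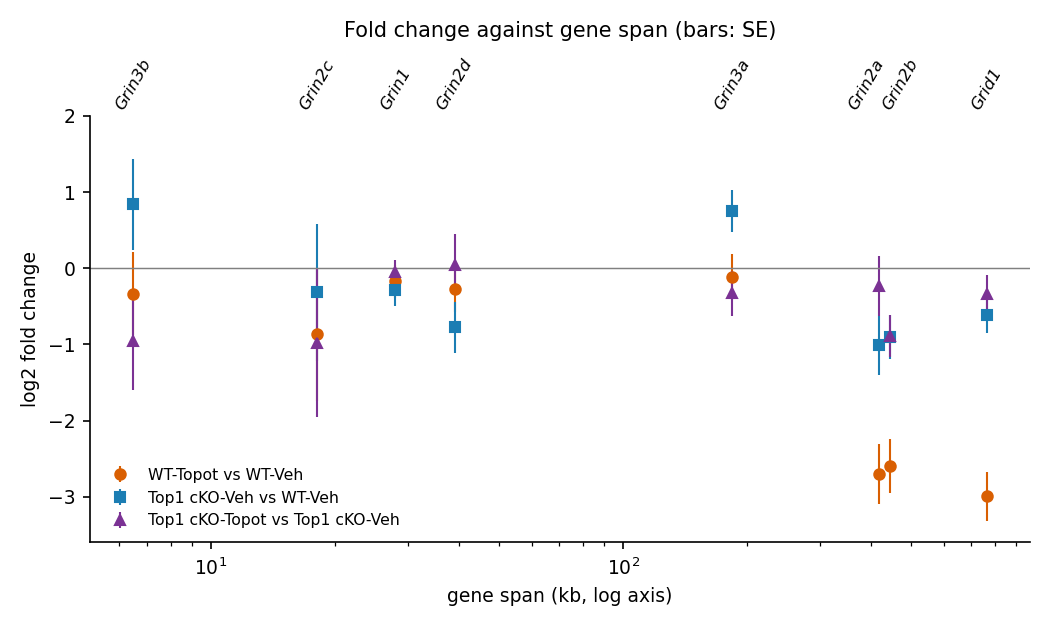
log2 fold change (bars, SE) against gene span on a log axis for the 8 genes in 3 comparisons. Grin2a, Grin2b and Grid1, from 417.2 to 763.6 kb, are at -2.60 to -2.99 for WT-Topot against WT-Veh, and Grin3a at 184.1 kb is at -0.11.

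Exons of 4 members overlap exons on the opposite strand, and the library kit does not mark strand. For Grin2b and Grin2c the overlaps are short, at most 143 and 91 bases with any 1 gene. Grin1os, an antisense transcript, shares 1307 bases with Grin1 exons, and its counts stayed at 24.7 to 31.6 per 100 Grin1 counts in all 12 libraries. Tmem259, on the opposite strand, shares 1059 bases with Grin3b exons and had 96.3 to 136 CPM, against at most 17.5 for Grin3b. How reads of such pairs were divided is not given in the sources used here, and the levels of these members, above all Grin1 and Grin3b, are uncertain to that extent.

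Genes that act around the receptor were counted from lists by role in WT-Topot against WT-Veh. Of 14 scaffold and trafficking genes 4 were lower (7 with the block), beside 3.56% (8.71%) of all genes, and none higher, with a median log2 fold change of -0.51 against 0.03 for all genes of at least 1 CPM. The strongest were Dlg2, which encodes the scaffold PSD-93 (-1.58 ± 0.19), Apba1, the adaptor Mint1 (-1.43 ± 0.18), and Cask (-1.36 ± 0.23). Of 19 kinases, phosphatases and downstream enzymes 3 were lower (6 with the block) and none higher (median -0.22): Prkcb, a protein kinase C (-2.22 ± 0.21), Ppp3ca, the calcineurin catalytic subunit (-1.47 ± 0.21), and Fyn, a Src-family kinase of GluN2 tails (-0.89 ± 0.20).

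Of 6 genes of co-agonist supply 2 were lower, and 3 with the block, beside 3.56% and 8.71% of all genes (median of the 5 of at least 1 CPM, -0.83). The 2 were the glycine transporter Slc6a9 (-1.27 ± 0.28) and the neutral amino acid transporter Slc1a4 (-0.83 ± 0.18). Slc6a9, of only 40.7 kb, was also lower in Top1 cKO-Veh (-1.90 ± 0.29, adjusted p = 0.00658), where Dlg2 (-1.19 ± 0.18, adjusted p = 0.00694) and Grm5 (-1.26 ± 0.20, adjusted p = 0.00877) passed too. These 3 were the only listed partner genes called for deletion without the block, beside 0.219% of all genes called lower. With the block, beside 5.15% of all genes lower and 4.53% higher, 4 of 14 scaffold genes were lower and 3 higher, and 3 of 19 enzymes lower and 1 higher. Of the co-agonist genes 4 of 6 were then lower, of AMPA and kainate subunits 2 of 9 (1 higher) and of metabotropic receptors 4 of 8. Partners of delta receptors were lower in 3 of 10 cases.

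Of 10 partners of delta receptors 2 were lower in WT-Topot, and 3 with the block, beside 3.56% and 8.71% of all genes. None was higher, and the median was -0.59. Among the 2 was Nrxn3, a neurexin that holds GluD1 through cerebellins (log2 fold change -3.55 ± 0.25). The interaction passed for Nrxn3, Apba1 and Prkcb, at 2.34, 1.36 and 1.90. They were 1 of 10 delta receptor partners, 1 of 14 scaffold genes and 1 of 19 enzymes, beside 0.692% of all genes called higher. With the block 5 scaffold genes, 3 enzymes and 3 delta receptor partners were higher, beside 4.24%. So were 3 of 9 AMPA and kainate subunits and 3 of 8 metabotropic receptors. Of 6 co-agonist genes 1 was then higher and 1 lower, beside 365 of 13720 genes lower.

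Other glutamate receptors fell beside the NMDA genes. Of 9 AMPA and kainate subunits 4 were lower, and 7 with the block (median -1.31), beside 3.56% and 8.71% of all genes. Those of smallest p were Grik2 (-2.67 ± 0.30), Gria4 (-1.98 ± 0.28) and Gria1 (-1.31 ± 0.21). Of 8 metabotropic receptors 3 were lower, and 6 with the block, beside the same shares of all genes (median of the 7 of at least 1 CPM, -1.34): Grm7 (-3.13 ± 0.28), Grm8 (-3.34 ± 0.45) and Grm5 (-2.29 ± 0.22). None in either list was higher.

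Genes whose log2 CPM ran most like that of each member over the 12 libraries are given, up to 3 for each, by Pearson's r as a description, since the libraries share groups and replicate numbers. For Grin2b these were Fmn2 (0.983) and Cdh13 (0.973), for Grin2a Pam (0.973), Arhgap26 (0.967) and Rab3c (0.964), and for Grid1 Slc24a3 (0.989), Rapgef4 (0.985) and Fat3 (0.984). These 8 genes span 226.7 to 1041 kb. Grin1 ran with its antisense partner Grin1os (0.948), Limch1 (0.927) and Wars (0.925), Grin2d with Ubr7 (0.93), Gm166 (0.926) and Bok (0.922), and Grin3a with Elfn1 (0.912), Ahi1 (0.907) and Chuk (0.897).

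Neuronal markers were plentiful in all groups, with 3927 to 5453 CPM summed over 7 genes. In WT-Topot against WT-Veh 1 of the 7 was called lower, beside 3.56% of all genes. With the block 3 were lower and 3 higher, beside 8.71% of all genes lower and 771 of 13720 higher. The 8 astrocyte markers summed to 2370 to 4826 CPM in WT-Veh, 1087 to 1836 in WT-Topot, 2685 to 6145 in Top1 cKO-Veh and 1686 to 3110 in Top1 cKO-Topot, and 3 of 8 were called lower in WT-Topot (5 with the block), beside 3.56% (8.71%) of all genes. In Top1 cKO-Topot none of the 8 was called against either vehicle group without the block. With it 5 were lower than in Top1 cKO-Veh (3.02% of all genes) and 4 lower than in WT-Veh (7.00%). Against WT-Topot 1 was higher (2.55% of all genes), and 2 with the block (8.02%). The 10 interneuron markers summed to 896 to 2003 CPM in WT-Veh and 589 to 1073 in WT-Topot, and 1 was called lower (3.56% of all genes). With the block 6 were lower (8.71% of all genes) and 2 higher (771 of 13720 genes). In the Top1 cKO groups the interneuron markers summed to 968 to 1604 CPM. The part of these shifts in the differences of Grin2a, Grin2b and Grid1 between any of the groups was not tested. Fewer cells of a type cannot be told apart from less RNA per cell. Oligodendrocyte lineage markers (8 genes) summed to 98.5 to 297 CPM, and markers of microglia (8), endothelial (5) and proliferating cells (5) to at most 20.2, 5.01 and 5.70 CPM.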

How the data were processed

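Poly(A) RNA was sequenced by the authors in 12 libraries as paired 50-base reads. Per the study's methods and the labels, reads were filtered, aligned to mm9 with TopHat and counted over RefSeq exons; the counter, its use of strand and versions are not given in the sources used here. The deposited unit is raw counts per gene symbol. From these, edgeR 4.0.16 (R 4.3.3) gave TMM-scaled CPM and quasi-likelihood tests on the 6 libraries of each comparison, and on all 12 for the interaction, with Benjamini-Hochberg adjustment over 23893 genes, no gene filter and a threshold of 0.01. SE is the log2 fold change divided by the root of F. Totals of 1730164 to 4583777 counts limit the precision of low genes; intervals and floors (3 counts) cover counting error only. Counts were simulated for WT-Topot against WT-Veh over 23893 genes, with a fixed dispersion and no replicate effect. Changes were put into 200 genes, all above 10 CPM, and 54% of 1-log2 and 100% of 2-log2 changes were recovered. These rates do not cover genes of lower level or of larger spread.

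Replicate numbers come from the sample labels. Over 13720 genes, deviations from group means correlated at 0.261 to 0.485 between same-numbered libraries. Those between others, -0.384 to -0.0494, are no separate evidence, because deviations within a group cancel out. The main tests were unpaired, since no pairing is stated, and the replicate block was an alternative. No 2 libraries of a group were duplicates (chi-square per gene 6.05 to 10.1). What the numbers share is not stated in the labels, and the paper's figure legend gives n = 3 cultures for these data. P-values set differences against the spread between these libraries.

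The balance was log2((Grin2a + 0.5)/(Grin2b + 0.5)) of the counts, with exact permutation tests (Python 3.11.15, SciPy 1.17.1). Coordinates and lengths are from GENCODE vM1 on NCBIM37, matched by symbol for 21013 genes. Beyond the members and Top1, named genes were the up to 3 lowest p per partner list among those called in WT-Topot against WT-Veh, those called in another comparison where no named gene was, and the 3 genes most like each member of at least 10 CPM; Grin1os and Tmem259 were added after seeing values. Some results these rules name are not reported here. Members and lists were chosen with earlier results of these data known. Alternatives were the replicate block, a low-count filter, RLE scaling, DESeq2 1.42.0, edgeR's exact test, 1 fit of all 12 libraries, a threshold of 0.05 and leaving out each library; for the balance, pseudocount 1, percent Grin2a, the block and leaving out each library.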

Additional observations from a re-analysis of the deposited data

Results flagged for a closer look

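The topotecan effect on Grid1 differed between genotypes by a test of the difference itself: the interaction was 2.64 on the log2 scale (edgeR quasi-likelihood test, adjusted p = 0.00121). Grid1, Grin2a and Grin2b also came up because the sign of the deletion effect reversed. In all 3 replicate pairs the Top1 cKO library was below its WT partner under vehicle and above it under topotecan. The share of all genes with this pattern is not given here. The corresponding interactions were 2.64 for Grid1, 2.46 for Grin2a (adjusted p = 0.0353) and 1.69 for Grin2b (adjusted p = 0.161). Grin2a passed at 0.01 with the replicate block and with DESeq2, and Grin2b with the block and without replicate 2 of WT-Topot. In flagging these results, groups of 3 were not searched for single libraries that stand apart. Values with each library left out are given below.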

How the results depend on the processing

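The fold changes given for named subunits were recomputed under each alternative. Of 335 such values 313 kept their direction and their side of the threshold, 17 came to pass it, and 5, none of them called, changed sign. With the replicate block the number of genes called lower became 2 in Top1 cKO-Veh against WT-Veh (and 1 higher), 3 in Top1 cKO-Topot against WT-Veh, 1 between the Top1 cKO groups, and 4 in WT-Topot against Top1 cKO-Veh. The number called higher became 3 in Top1 cKO-Topot against WT-Topot and 3 for the interaction. The block changed no other call on these 8 genes. At a threshold of 0.05 the 4 comparisons that had 1 call each gave 3 (Top1 cKO-Topot against WT-Veh), 2 (Top1 cKO-Topot against WT-Topot), 2 (WT-Topot against Top1 cKO-Veh) and 2 (interaction), and DESeq2 gave 2 for the interaction.

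With single libraries left out, the calls ranged from 1 to 3 in Top1 cKO-Topot against WT-Veh, 0 to 1 against Top1 cKO-Veh, 1 to 2 against WT-Topot, 1 to 3 in WT-Topot against Top1 cKO-Veh and 1 to 2 for the interaction. The log2 fold change in WT-Topot against WT-Veh ranged from -0.38 to 0.061 for Grin1, -0.37 to 0.14 for Grin3a and -0.89 to 0.70 for Grin3b, and that of Grin2a between the Top1 cKO groups from -0.55 to 0.19; none of these was called. The balance in comparisons with WT-Topot ranged from -0.068 to 0.59 (against WT-Veh), 0.089 to 0.75 (against Top1 cKO-Veh) and 0.012 to 0.67 (Top1 cKO-Topot against it). The balance over both genotypes ranged from 0.35 to 0.68 for topotecan, and from -0.073 to 0.26 for deletion over both treatments. The causes were not tested. Paired by replicate number, the balance gave the same mean differences, with exact sign-flip p of at least 0.25, the smallest that 3 pairs allow. Depth limits Grin2c and Grin3b in all groups and Grin2a and Grid1 in WT-Topot, where 6 to 25 counts remain per library.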
